A study of Macaca mulatta with 28 samples.

Results

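Cadherins, protocadherins, contactins, neurexins and their postsynaptic partners are surface proteins with which brain cells recognise and hold each other. In RNA from the macaque ventral tegmental area (VTA), 68 of the 16885 named entries of the count table belonged to these families, chosen by gene symbol: CDH with a number, PCDH, CNTN1 to CNTN6, CNTNAP, NRXN, NLGN1, NLGN3 and NLGN4, and LRRTM1 to LRRTM4. Of the 68, 67 had at least 5 counts in at least 3 animals and were tested among 13769 transcripts. CDH16, a cadherin known from kidney, was at 0 in all 28 libraries.

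RNA came from a VTA punch of bulk tissue from each of 28 adult male wild-type macaques, with 1 library per animal. The 17 drinkers had been induced to self-administer ethanol, had long open access to it with repeated months of forced abstinence, and were necropsied at the end of the last abstinence. By intake, 9 were labelled very heavy, 5 heavy, 2 binge and 1 low drinkers. The 11 controls, which drank no ethanol, were calorically yoked or housing controls. The animals came in 2 cohorts, with 8 drinkers and 8 controls in cohort 1 and 9 drinkers and 3 controls in cohort 2. Of the 5 heavy drinkers, 4 were in cohort 1, and of the 9 very heavy drinkers, 6 were in cohort 2. Drinking category and cohort are thus partly mixed, and a necropsy after a month without ethanol says nothing of levels during drinking.

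Classical cadherins bind their own kind on the facing cell through calcium-dependent extracellular repeats, and the clustered protocadherins, encoded as neighbouring single variable exons, give each neuron a surface code used in self-recognition. Neurexins sit on the presynaptic side and bind neuroligins and LRRTM proteins across the cleft. Contactins are held to the membrane by a lipid anchor and pair with CNTNAP proteins, among other places where myelin meets the axon beside the node of Ranvier.

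The table gives each gene symbol 1 transcript, so a value below is the estimated count of that listed transcript and leaves out what was assigned to other transcripts of the gene. Totals in the table ran from 12303914 to 27338669 counts per library (median 22020291), and the 68 genes held 0.151% to 0.272% of them. These totals cover only listed transcripts and are not the sequencing depth. Levels are given as CPM, the count scaled to a common table total, after TMM scaling between libraries. TH, the dopamine synthesis enzyme, and SLC6A3, the dopamine transporter, had counts in every library, from 83 to 18843 and from 80 to 18395. The summed dopamine neuron markers ranged from 52.9 to 1870.5 CPM among animals, while oligodendrocyte markers ranged from 12304 to 22025 CPM. The punches therefore differed in their dopamine neuron RNA by far more than in their oligodendrocyte RNA. In bulk tissue, fewer cells of a type and less RNA per cell cannot be told apart.

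In controls, the most abundant of these genes per length was CNTN1, a contactin of neurons and glia, at 53.1 ± 7.75 CPM per kb (SD, n = 11). NLGN3, a postsynaptic neurexin receptor, followed at 47.7 ± 7.66 CPM per kb. CDH2, the neural N-cadherin, stood at 36.0 ± 2.62, NRXN2, a neurexin, at 33.2 ± 3.59, and CDH20, a type II cadherin, at 30.9 ± 3.48 CPM per kb. CNTN1 and NLGN3 lie within each other's SD, and so do NRXN2 and CDH20, while CDH2 lies above NRXN2 by more than its own SD and less than that of NRXN2. Lengths here are the median over a gene's RefSeq mRNAs, because the length of the listed transcript was not used. Near the other end were CNTN2, an axonal contactin, at 0.0154, CDH17 at 0.0222, CDH12 at 0.0393 and CDH7 at 0.0605 CPM per kb, and each of these SDs was larger than its mean.

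**Figure D1:**
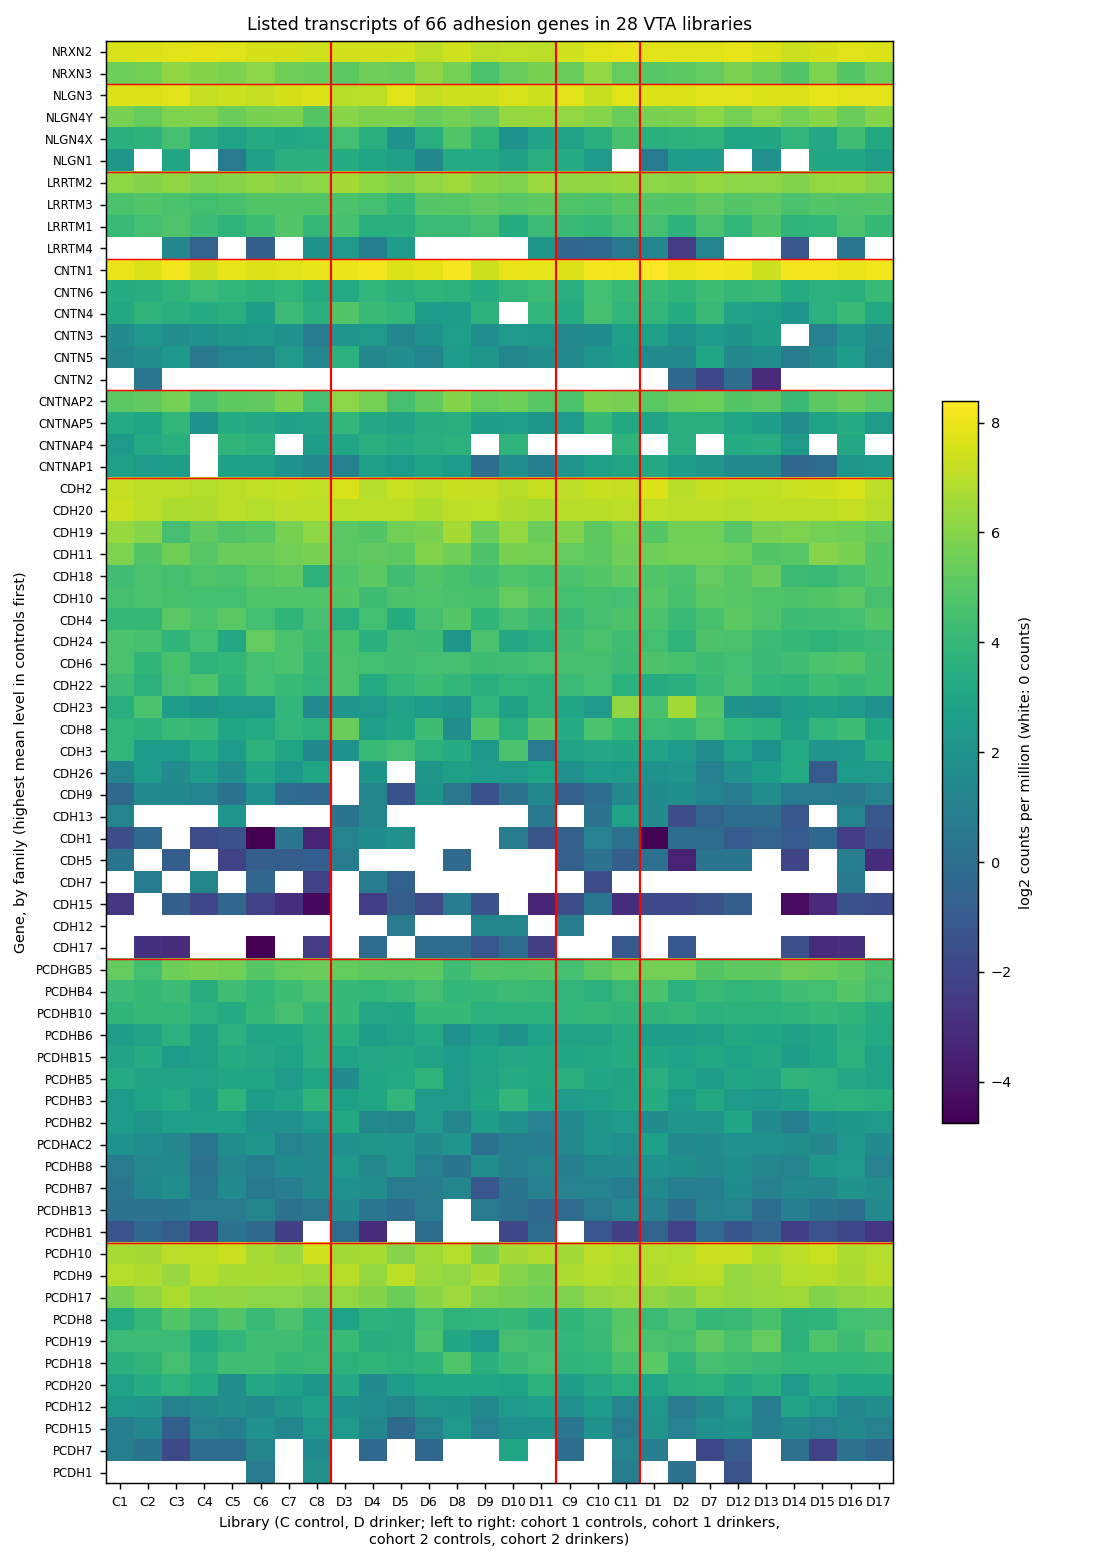
Heat map of 66 tested genes (rows, by family) in 28 libraries (columns, by cohort and group), coloured by log2 CPM, with 0 counts in white. CNTN1, NLGN3, NRXN2, CDH2 and CDH20 are high in every library, while 20 genes have at least 1 white cell.

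Most members were present in every animal: 46 of 67 had a count in all 28 libraries. The other 21, or 31.3%, were at 0 in at least 1 library, against 39.5% of all tested transcripts. In 5 of them, with CDH12, CNTN2, PCDH1 and CDH7 among the 5, at least 14 libraries were at 0, which is 7.46% of the members and 13.96% of all tested transcripts. CNTNAP4 shows the pattern at a higher level. It was at 0 in 10 libraries and between 65 and 337 counts in the other 18. NLGN1, the best known excitatory neuroligin, was at 0 in 5 libraries and reached 270 counts elsewhere. NRXN2, for which RefSeq lists 30 mRNAs, had 2063 to 5864 counts of its listed transcript in every library. A 0 in this table is the absence of a single transcript, not of the gene.

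The 0s were spread over both groups. Controls had 4 to 9 members at 0 (median 6) and drinkers 4 to 11 (median 8). In cohort 1 the medians were 6.5 in controls and 9 in drinkers, and in cohort 2 both were 6. CDH5, the endothelial cadherin, was at 0 in 2 of 8 cohort 1 controls, 6 of 8 cohort 1 drinkers, none of the 3 cohort 2 controls and 2 of 9 cohort 2 drinkers. CDH12 had counts in 4 libraries only: 36 in 1 cohort 2 control, and 35, 40 and 47 in 3 cohort 1 drinkers. CNTN2 had 19 counts in 1 cohort 1 control and 2 to 23 counts in 4 cohort 2 drinkers. PCDH1 had 43 to 78 counts in 3 controls and 9 and 24 in 2 drinkers. The fitted values of CDH12, CNTN2 and PCDH1 rest on a few libraries and are not read as fold changes.

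Some members are so alike that reads can be hard to assign. Of the 64 tested members with RefSeq mRNAs, 12 shared over 5% of their 31-base words with mRNAs of another gene, and 10 of the 12 were clustered protocadherins. The median over the 64 was 0. PCDHB8 shared 53.0% and PCDHB13 49.9%, mostly with each other, and their aligned coding bases were 93.7% identical. The other alike pair was NLGN4X and NLGN4Y, the X- and Y-linked copies of a neuroligin, with 26.5% and 26.3% of words shared and 97.9% of aligned coding bases identical.

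**Figure D2:**
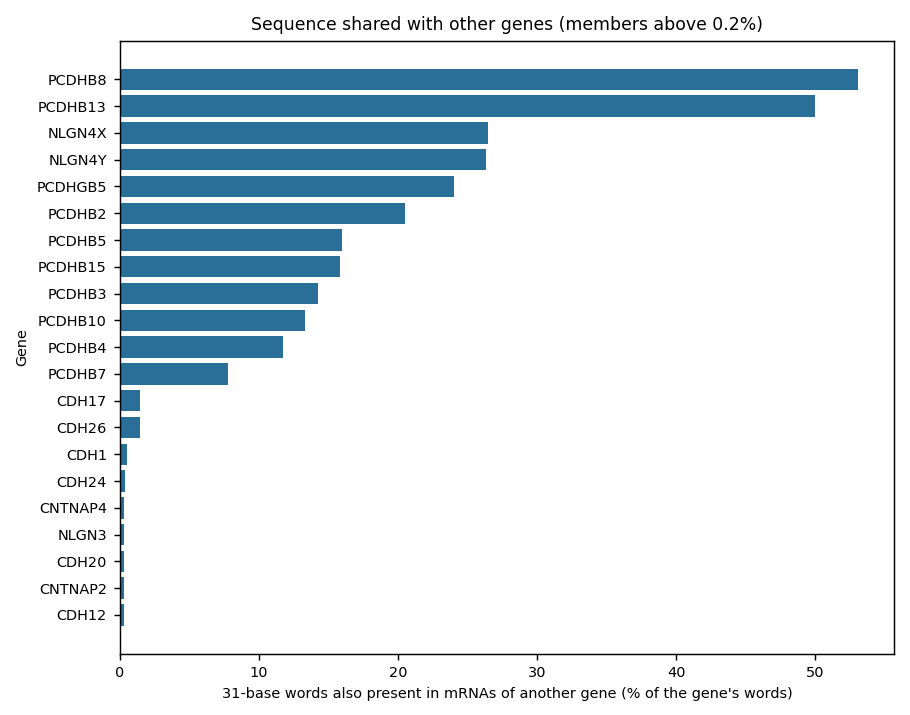
Share of a gene's 31-base words (bars, in percent, from RefSeq mRNAs) that also occur in mRNAs of another gene, for members above 0.2%. PCDHB8 and PCDHB13 have the longest bars, followed by the X and Y copies of NLGN4 and by PCDHGB5.

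The sequences below show how far such pairs can and cannot be separated. The first 60 coding bases of PCDHB8 (chr6:138556369-138556428, Mmul_10, plus strand) and PCDHB13 (chr6:138589952-138590011, plus strand) are the same, and no base is in capitals.
PCDHB8 and PCDHB13, start: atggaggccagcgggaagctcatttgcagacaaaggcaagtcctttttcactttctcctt
The stretch of the same length with the most differences, 28 bases, lies near the end of the coding sequence (PCDHB8 chr6:138558681-138558740, PCDHB13 chr6:138592261-138592320), with the differing bases in capitals.
PCDHB8: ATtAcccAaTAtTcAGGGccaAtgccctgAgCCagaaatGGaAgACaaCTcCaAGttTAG
PCDHB13: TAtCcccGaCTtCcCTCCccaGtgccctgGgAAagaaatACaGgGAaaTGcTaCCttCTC
For NLGN4X (chrX:5719730-5719789, minus strand) and NLGN4Y (chrY:4224531-4224590, plus strand), the most different stretch has only 10 differing bases, again in capitals, and is in the coding part.
NLGN4X: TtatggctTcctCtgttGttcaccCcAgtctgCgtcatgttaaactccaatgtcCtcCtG
NLGN4Y: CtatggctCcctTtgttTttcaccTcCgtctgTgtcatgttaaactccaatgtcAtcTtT
The values of the 12 members above 5% are therefore less certain than those of members that share no word. NLGN4Y had 547 to 1675 counts per library and NLGN4X 78 to 577, so the Y copy was the higher of the pair in counts of the listed transcripts. Across the 28 libraries their log2 CPM had a Pearson correlation of -0.334, given as a description of libraries that share their processing.

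The first comparison asked whether adhesion genes differed between drinkers and controls after abstinence. In all 28 animals none of the 67 members passed an adjusted p of 0.05 with edgeR, where 0% of the 13769 transcripts did, and DESeq2 and limma-voom also called 0 members. At an unadjusted p under 0.05 there were 3 members, or 1 higher and 2 lower, against 4.57% of all transcripts (2.52% higher and 2.05% lower). The median log2 fold change was 0.009 over members and 0.001 over all transcripts. For the 46 members with counts in every library, the fold changes ran from -0.35 to 0.37 on the log2 scale. The 95% interval lay within 0.5 on either side of 0 for 29 of the 46 and within 1 for 45 of them. For these genes a change of 2-fold between drinkers and controls would thus fall outside the interval in all but 1 case, CDH23.

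CDH10, a type II cadherin of neurons, had the lowest p. It ranged from 20.95 to 27.3 CPM in controls (median 23.4) and from 19.6 to 39.05 in drinkers (median 27.3), with overlapping groups. Its log2 fold change was 0.23 (SE 0.09, edgeR adjusted p = 0.88). The value was 0.15 in cohort 1 (SE 0.12) and 0.37 in cohort 2 (SE 0.13, adjusted p = 1), where the 3 controls stood at 21.3, 22.1 and 23.4 CPM and all but 1 of the 9 drinkers stood at or above 23.4. With an offset for GC content the value in all animals was 0.16.

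The neurexins NRXN2 and NRXN3 both lay below 0. NRXN3 ranged from 39.2 to 76.6 CPM in controls (median 47.5) and from 24.1 to 73.1 in drinkers (median 41.2). Its log2 fold change was -0.35 (SE 0.15, adjusted p = 1.0), with -0.27 in cohort 1 (SE 0.19) and -0.36 in cohort 2 (SE 0.25). The groups overlapped. NRXN2 was at 174 to 243 CPM in controls (median 203.5) and 129 to 237 in drinkers (median 179), with a log2 fold change of -0.15 (SE 0.09). Among their partners, the 4 neuroligins lay between 0.02 and 0.19, and LRRTM2, an excitatory synapse organizer, had a log2 fold change of 0.06 (SE 0.07). Neither the neuroligins nor the LRRTM genes had a member at an unadjusted p under 0.05.

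The cadherins had 1 of 22 members at an unadjusted p under 0.05 (CDH10) and a median of 0.009. CDH2 was at 116 to 151 CPM in controls (median 140) and 120 to 204 in drinkers (median 150), with a log2 fold change of 0.14 (SE 0.07). CDH20, at 107 to 161 and 103 to 145 CPM, had the narrowest interval of the well expressed cadherins, from -0.10 to 0.12. Among the 13 clustered protocadherins no member had an unadjusted p under 0.05, and their changes ran from -0.25 to 0.37. Of the 11 other protocadherins, PCDH1 alone had one, through the few libraries named above. Contactins and CNTNAP genes had none. The intervals were -0.06 to 0.30 for CNTN1, -0.24 to 0.26 for CNTN6, -0.32 to 0.16 for PCDH9 and -0.28 to 0.19 for PCDH17.

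**Figure D3:**
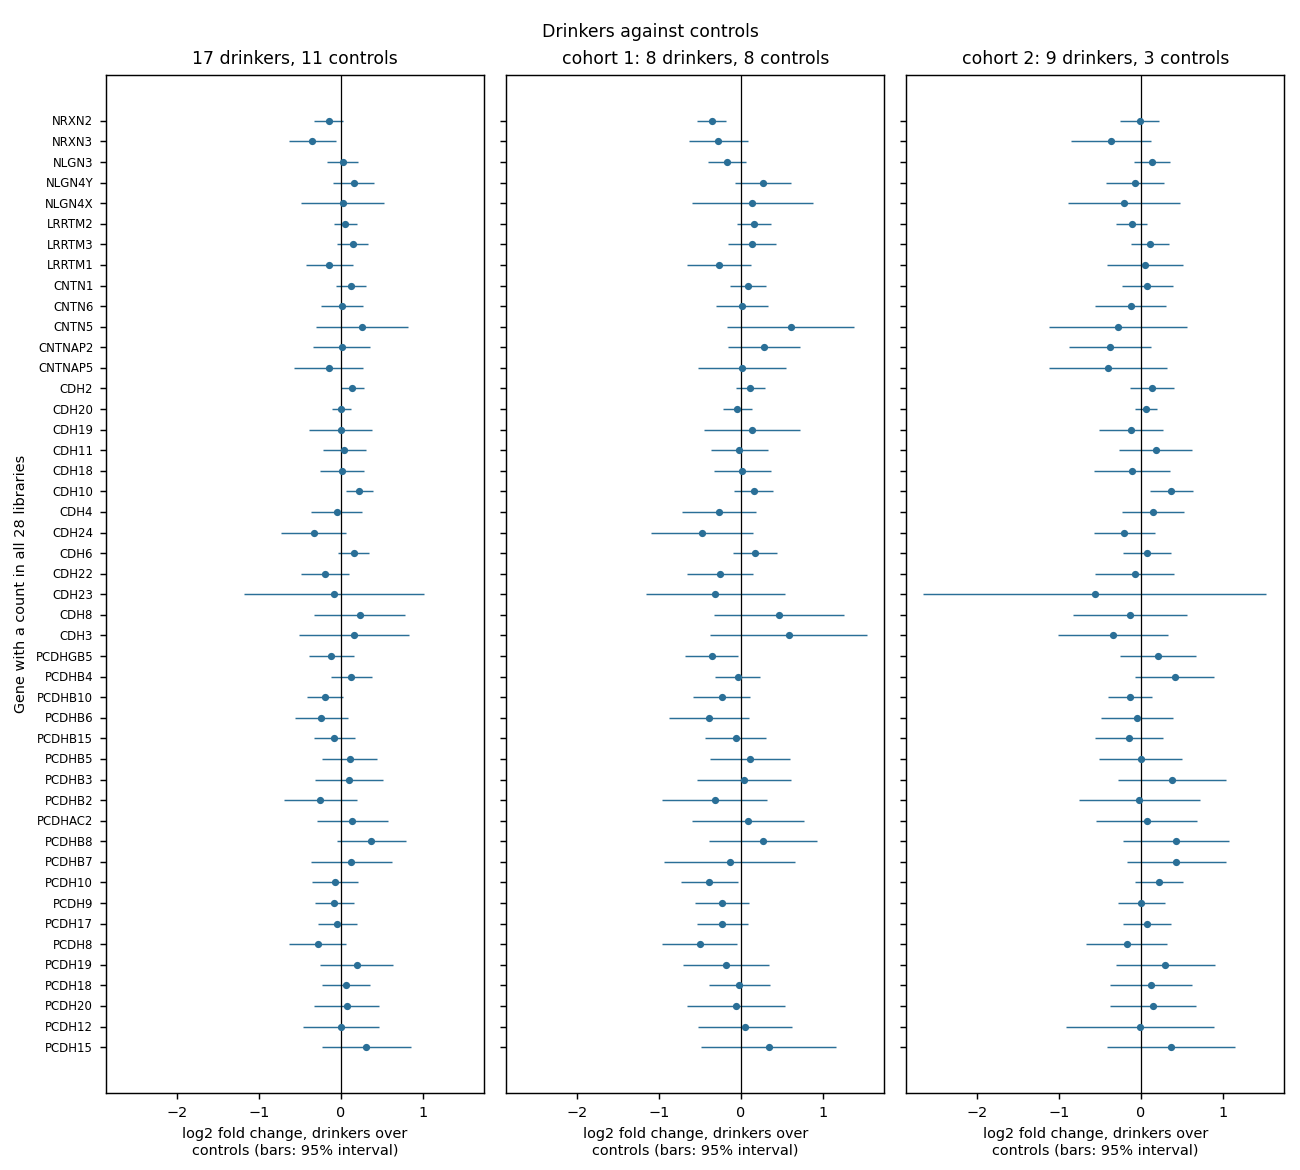
Log2 fold change of drinkers over controls (x axis, shared scale) with 95% intervals for the 46 genes with counts in every library, in all animals and in each cohort. Most intervals cross 0, NRXN2 lies below 0 in cohort 1 at -0.36 and near 0 in cohort 2, and CDH23 has the widest intervals.

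Taken by cohort, NRXN2 gave the lowest p of any member. In cohort 1 it ranged from 174 to 226 CPM in the 8 controls (median 200) and from 129 to 179 in the 8 drinkers (median 158). Of the 8 drinkers, 5 stood below every control of the cohort, and the upper end of the drinkers overlapped the lowest control. The log2 fold change was -0.36 (SE 0.09, unadjusted p = 0.00108 with edgeR, adjusted p = 0.17), and it did not pass the test. DESeq2 gave an adjusted p of 0.0163 and limma-voom 0.147. Leaving out each of the 16 animals in turn gave -0.39 to -0.32. With an offset for GC content fitted in each library, the value shrank to -0.15 (adjusted p = 0.76). NRXN2 mRNAs have a mean GC fraction of 0.633, and whether GC has a part in the difference was not tested further. In cohort 2 the 3 controls were at 174, 213 and 243 CPM and the 9 drinkers at 160 to 237 (median 211), with a log2 fold change of -0.02. The 5 cohort 1 drinkers with NRXN2 below every control also stood apart in a score of oligodendrocyte precursor markers. They had -3.82 to -0.48, and the lowest cohort 1 control had -0.41. That score was picked after its values were seen, and its part in the difference was not tested.

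Within cohort 1 the test called 0 members with edgeR and limma-voom and 1 (NRXN2) with DESeq2, against 0.0363% of all transcripts with edgeR. At an unadjusted p under 0.05 there were 8 members, or 2 higher and 6 lower, where 11.6% of all transcripts were (5.35% higher and 6.27% lower). Of the 8, CDH12, CDH17, PCDH1 and CNTN2 were transcripts at 0 in many libraries. PCDH10, a protocadherin of midbrain and limbic neurons, was at 81.4 to 174 CPM in controls (median 114) and 53.0 to 123 in drinkers (median 98.2), a log2 fold change of -0.39 (SE 0.18). PCDH8, an activity-regulated protocadherin, gave -0.50 (SE 0.23), with 9.69 to 28.6 CPM in controls and 7.22 to 22.0 in drinkers. PCDHGB5, a gamma protocadherin that shares 24.0% of its words with other genes, gave -0.36 (SE 0.17). All 3 had an adjusted p from 0.41 to 0.42, and their groups overlapped.

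In cohort 2, edgeR, DESeq2 and limma-voom each called 0 members, where 0% of all transcripts were called with edgeR. With edgeR 2 members (CDH10 and CDH12) had an unadjusted p under 0.05, against 3.97% of all. PCDH10 had a log2 fold change of 0.22 (SE 0.15), with controls at 94.7, 117 and 133.7 CPM and drinkers at 109 to 163 (median 123).

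The difference between the cohorts was tested as an interaction. None of the 67 members passed with edgeR, DESeq2 or limma-voom, against 0.0145% of all transcripts with edgeR, and 4 had an unadjusted p under 0.05 where 9.62% of all transcripts did. Besides CDH12 and CNTN2, these were NRXN2, with a difference of 0.34 on the log2 scale (SE 0.15, adjusted p = 0.47), and PCDH10, with 0.60 (SE 0.27, adjusted p = 0.47). The cohorts cannot be said to differ in the drinking comparison for any member. The 3 cohort 2 controls limit this test.

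**Figure D4:**
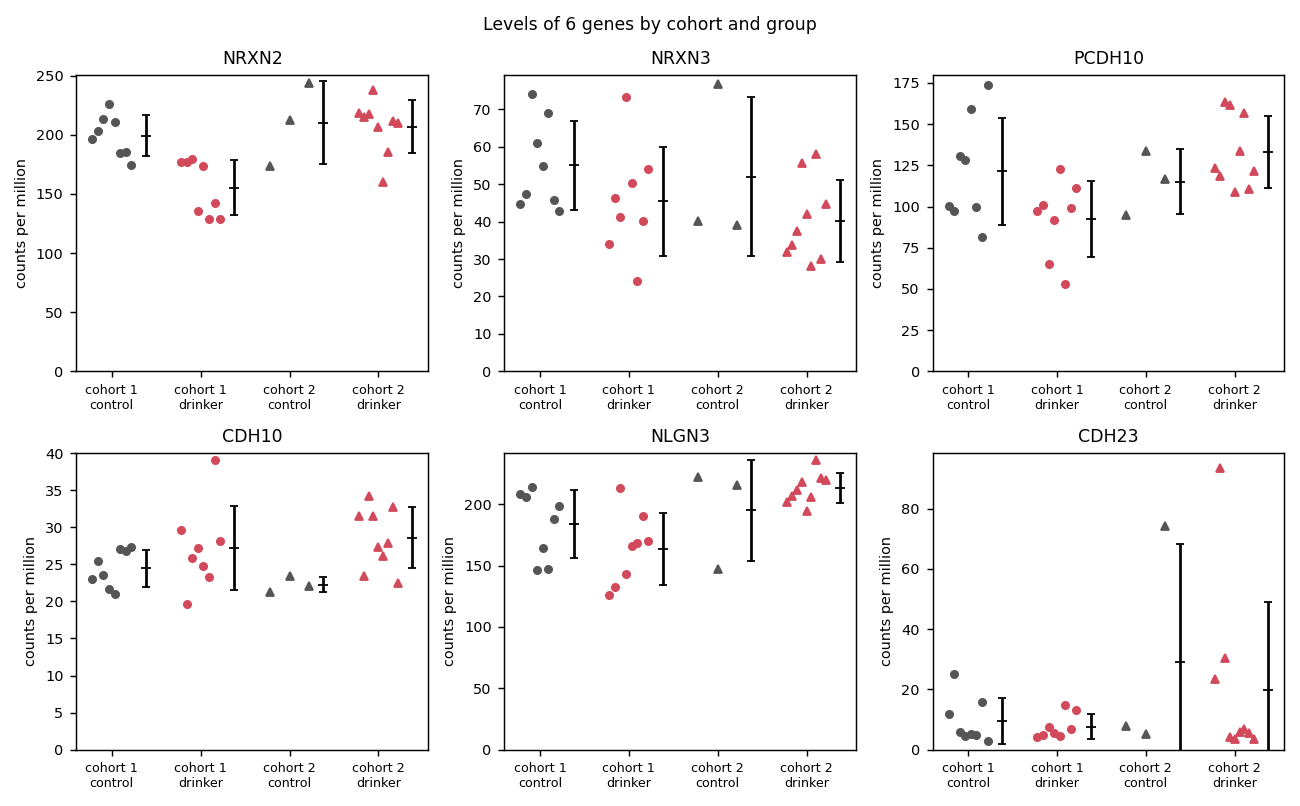
CPM of NRXN2, NRXN3, PCDH10, CDH10, NLGN3 and CDH23 (y axes from 0) in each animal by cohort (circles 1, triangles 2) and group (grey control, red drinker), with mean and SD as black bars. NRXN2 drinkers of cohort 1 sit at 129 to 179 CPM below most controls, and CDH23 is over 20 CPM in 4 animals of cohort 2 and 1 of cohort 1.

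The cohorts themselves were compared in a fit that also held the drinking term. With edgeR no member was called, against 0.0436% of all transcripts, while DESeq2 called 1 (NRXN2) and limma-voom 0. At an unadjusted p under 0.05 there were 7 members, all higher in cohort 2, where 9.8% of all transcripts were in either direction and 5.53% were higher. NRXN2 was 0.30 higher on the log2 scale (SE 0.08, edgeR adjusted p = 0.14). Among drinkers alone it was 0.41 higher (adjusted p = 0.0480), with 129 to 179 CPM in cohort 1 and 160 to 237 in cohort 2. NLGN3 was 0.28 higher (SE 0.09, adjusted p = 0.20), and its 9 cohort 2 drinkers lay at 195 to 236 CPM against 126 to 213 in the 8 cohort 1 drinkers.

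Of the other protocadherins, 4 were on this list. PCDH19, which acts with CDH2 and is linked to an X-linked epilepsy, was 0.62 higher (SE 0.21, adjusted p = 0.22). PCDH10 was 0.33 (SE 0.14), PCDH17 0.25 (SE 0.12) and PCDH9 0.25 (SE 0.12) higher, with adjusted p from 0.40 to 0.50. The summed astrocyte markers also differed in range, from 578 to 946 CPM in cohort 1 (median 786) and from 640 to 1447 in cohort 2 (median 870), and PCDH10 had a slope of 0.20 on the astrocyte score. The part of the astrocyte RNA in the cohort values was not tested.

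CDH23, the cadherin of hair cell tip links, was 1.45 higher in cohort 2 (SE 0.51, adjusted p = 0.26). It stood at 93.3, 30.5 and 23.6 CPM in 3 drinkers and at 74.1 CPM in 1 control, all in cohort 2, while the other 8 animals of that cohort lay between 3.54 and 7.83 CPM. Cohort 1 spanned 2.92 to 25.1 CPM, and the groups overlapped. The spread over all animals was 31.9-fold, the widest among the 46 members with counts everywhere, and 1.57-fold, the narrowest, for CDH20.

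Drinking category gave little more. Between 9 very heavy and 5 heavy drinkers, edgeR, DESeq2 and limma-voom called 0 members, and with edgeR 4 had an unadjusted p under 0.05, against 6.80% of all transcripts. CNTNAP5, a neurexin-superfamily protein, was at 3.40 to 10.4 CPM in very heavy (median 6.20) and at 7.62 to 15.5 in heavy drinkers (median 10.9), a log2 fold change of -0.78 (SE 0.27, adjusted p = 0.61). CNTN5, a contactin of auditory and other neurons, gave -0.82 (SE 0.38), with 1.73 to 5.62 CPM against 2.28 to 12.5. Without drinker 3, the heavy drinker with the highest CNTN5, the value was -0.32 (adjusted p = 1). NLGN3 gave 0.29 (SE 0.13), with 168 to 236 CPM in very heavy (median 206) and 126 to 213 in heavy drinkers (median 143). With cohort as a term the value of NLGN3 was 0.19.

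Against the 11 controls, very heavy drinkers had 0 members called by edgeR, DESeq2 and limma-voom, and 5 with an unadjusted p under 0.05, against 4.62% of all transcripts. Among the 5 were CDH10 at 0.27 (SE 0.10), CNTNAP5 at -0.54 (SE 0.23) and NRXN3 at -0.37 (SE 0.17). The others were PCDH1 and CNTNAP1, a partner of CNTN1 at the paranode, at -1.03 (SE 0.50, 1 control library at 0). Heavy drinkers also had 0 called by the 3 tools, and 4 with an unadjusted p under 0.05, against 7.15%. Among the 4 were PCDH1, PCDH8 at -0.54 (SE 0.25) and CNTN5 at 0.76 (SE 0.37), which was 0.26 without drinker 3. CNTN5 in very heavy drinkers was at -0.06 (SE 0.31). Both comparisons share the same 11 controls.

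Partners of these proteins outside the families were counted in the same way. Between drinkers and controls, 0 of 10 catenins and other cytoplasmic cadherin partners, 0 of 33 other proteins of the neurexin synapse and 0 of 15 L1, NCAM and nodal genes were called with edgeR, and 1, 2 and 1 had an unadjusted p under 0.05 (JUP, then CADM2 and CASK, then NCAM2), against 4.57% of all transcripts. JUP, plakoglobin, which links cadherins to the cytoskeleton, gave -0.22 (SE 0.09). CASK, lower in drinkers, was at 0 in most libraries, and drinker 17 was the only drinker with counts. Its value rests on a few libraries and is not read as a fold change. CADM2, a synaptic immunoglobulin adhesion protein, gave 0.51 (SE 0.12, adjusted p = 0.52), with 0.44 in cohort 1 (SE 0.17) and 0.53 in cohort 2 (SE 0.17). The median change of each list lay between -0.013 and 0.025, against 0.001 over all transcripts. Outside the drinking comparison there were calls with edgeR. Between cohorts 1 of the 15 L1, NCAM and nodal genes was called, against 0.0436% of all transcripts. On the oligodendrocyte score described below, 1 of these 15 and 1 of the 10 cytoplasmic cadherin partners were called, against 2.03%.

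The genes were then set against the cell content of the punch. For each of 4 cell types a score was made from marker genes that are not members, and the slope of each member on it was fitted with group and cohort in the model, per SD of the score. The scores are measured in the same libraries as the members and describe them, and a slope does not place a gene in a cell type. Several markers were thin here: of the astrocyte list, SLC1A2 was at 0 in all 28 libraries, AQP4 in 18, and 6 of 8 passed the filter. The dopamine neuron and endothelial lists passed in full (12 and 8 genes), and of the oligodendrocyte list 9 of 10. Genes that passed could still be thin. CLDN11 of the oligodendrocyte list was at 0 in 15 libraries and GJB6 of the astrocyte list in 21. ALDH1A1 and NR4A2 of the dopamine neuron list were at 0 in 7 and 6.

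On the oligodendrocyte score, edgeR called 1 of 67 members, against 2.03% of all transcripts. This was CDH8, a type II cadherin of neurons (chr20:48832676-49230039, Mmul_10, minus strand), with a slope of -0.50 (SE 0.13, adjusted p = 0.0359). CDH8 ranged from 8.02 to 24.1 CPM in controls (median 14.7) and from 3.30 to 41.5 in drinkers (median 15.2). Its lowest value, in a low drinker of cohort 1, came with the second highest oligodendrocyte score, 1.67. The slope was -0.51 within cohort 1 and -0.56 within cohort 2, with adjusted p of 0.61 and 0.32. Pearson's r was -0.62 and Spearman's rho -0.68 over the 28 libraries, and r was -0.51 without the 2 farthest scores, -0.53 within cohort 1 and -0.86 within cohort 2. Leaving out each of the 28 animals in turn kept the slope between -0.58 and -0.42, and 21 of 28 fits kept the call. It was lost without controls 5 or 10 or drinkers 7, 8, 11, 14 or 17, at adjusted p from 0.0502 to 0.108. The value without control 10 was -0.52, and without drinker 8 -0.42. Without drinker 8, CNTNAP2 was called instead, at -0.31 (SE 0.08, adjusted p = 0.0401). DESeq2 and limma-voom also called CDH8.

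At an unadjusted p under 0.05 on this score there were 9 members, 2 higher and 7 lower, against 13.6% of all transcripts (6.38% higher and 7.17% lower). Below 0, besides CDH8, were CNTNAP2 at -0.19 (SE 0.08), CNTNAP5 at -0.22 (SE 0.10), CNTN5 at -0.30 (SE 0.14), NLGN4Y at -0.16 (SE 0.06), PCDH20 at -0.23 (SE 0.10) and CDH6 at -0.10 (SE 0.05). CNTNAP2, a partner of contactins on axons, was at 22.1 to 56.2 CPM in controls and 18.1 to 68.7 in drinkers. Above 0 were CDH19, a cadherin known from the Schwann cell lineage, at 0.20 (SE 0.10), and CDH20 at 0.06 (SE 0.03), which was at -0.01 in cohort 2 alone. The summed oligodendrocyte markers had a median of 18637 CPM in controls and 16306 in drinkers, with ranges of 12669 to 22025 and 12304 to 20991 that overlapped. CDH10's drinking value was 0.19 with this score in the model, and NRXN2's in cohort 1 was -0.32.

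On the astrocyte score, edgeR and limma-voom called 0 members and DESeq2 1, against 0.291% of all transcripts with edgeR, and 10 had an unadjusted p under 0.05, against 9.01%. CNTN1 had the lowest p, with a slope of 0.19 (SE 0.05, adjusted p = 0.0740), and it was the member called by DESeq2 (adjusted p = 0.0104). It ranged from 179 to 280 CPM in controls (median 235) and 170 to 334 in drinkers (median 260). The slope was 0.21 in each cohort alone. Its r with the score was 0.73 and rho 0.67 over 28 libraries, 0.61 without the 2 farthest, 0.61 in cohort 1 and 0.75 in cohort 2. CDH11 (0.23, SE 0.08), PCDH10 (0.20, SE 0.08) and PCDH18 (0.20, SE 0.08) also lay above 0, and CNTN5 (-0.40, SE 0.17) and LRRTM1 (-0.19, SE 0.08) below.

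The endothelial markers summed to 77.7 to 220 CPM. On the endothelial score, edgeR called 1 member, against 0.349% of all transcripts, DESeq2 2 and limma-voom 0. The edgeR call was CDH12, which had counts in only 4 libraries, and it is not read as a change in level. The other DESeq2 call was CNTN6, a contactin of neurons, with an edgeR slope of -0.20 (SE 0.05, adjusted p = 0.0667). With a filter of at least 10 counts in every library edgeR called CNTN6 (adjusted p = 0.0484), and CDH12 was not among the transcripts tested. It was -0.17 in cohort 1 and -0.36 in cohort 2, with adjusted p of 0.48 and 0.38. Its r with the score was -0.53 and rho -0.55 over 28 libraries, r was -0.575 without the 2 farthest, -0.68 in cohort 1 and -0.71 in cohort 2. CNTN6 ranged from 10.1 to 21.6 CPM in controls and 9.82 to 19.4 in drinkers. With edgeR 8 members had an unadjusted p under 0.05, against 9.96%. CDH5, although an endothelial marker, had 18 libraries with counts and r = 0.092 with the score over 28 libraries (permutation p = 0.65).

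On the dopamine neuron score no member was called with edgeR, DESeq2 or limma-voom, where 0.559% of all transcripts were with edgeR, and 7 had an unadjusted p under 0.05, against 7.13%. PCDH10 led with a slope of 0.20 (SE 0.06, adjusted p = 0.13), at 0.26 in cohort 1 and 0.13 in cohort 2. Its r with the score was 0.49 and rho 0.50, with r 0.51 without the 2 farthest libraries, 0.60 in cohort 1 and 0.385 in cohort 2. With the oligodendrocyte score also in the model its slope was 0.22 (adjusted p = 0.0465). NRXN3 (0.18, SE 0.06), CDH4 (0.18, SE 0.07) and CNTN1 (0.09, SE 0.04) also lay above 0, and CDH24 (-0.25, SE 0.09), CDH19 (-0.20, SE 0.10) and CDH20 (-0.07, SE 0.03) lay below 0. CDH4 went the other way in cohort 2 alone, at -0.04.

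**Figure D5:**
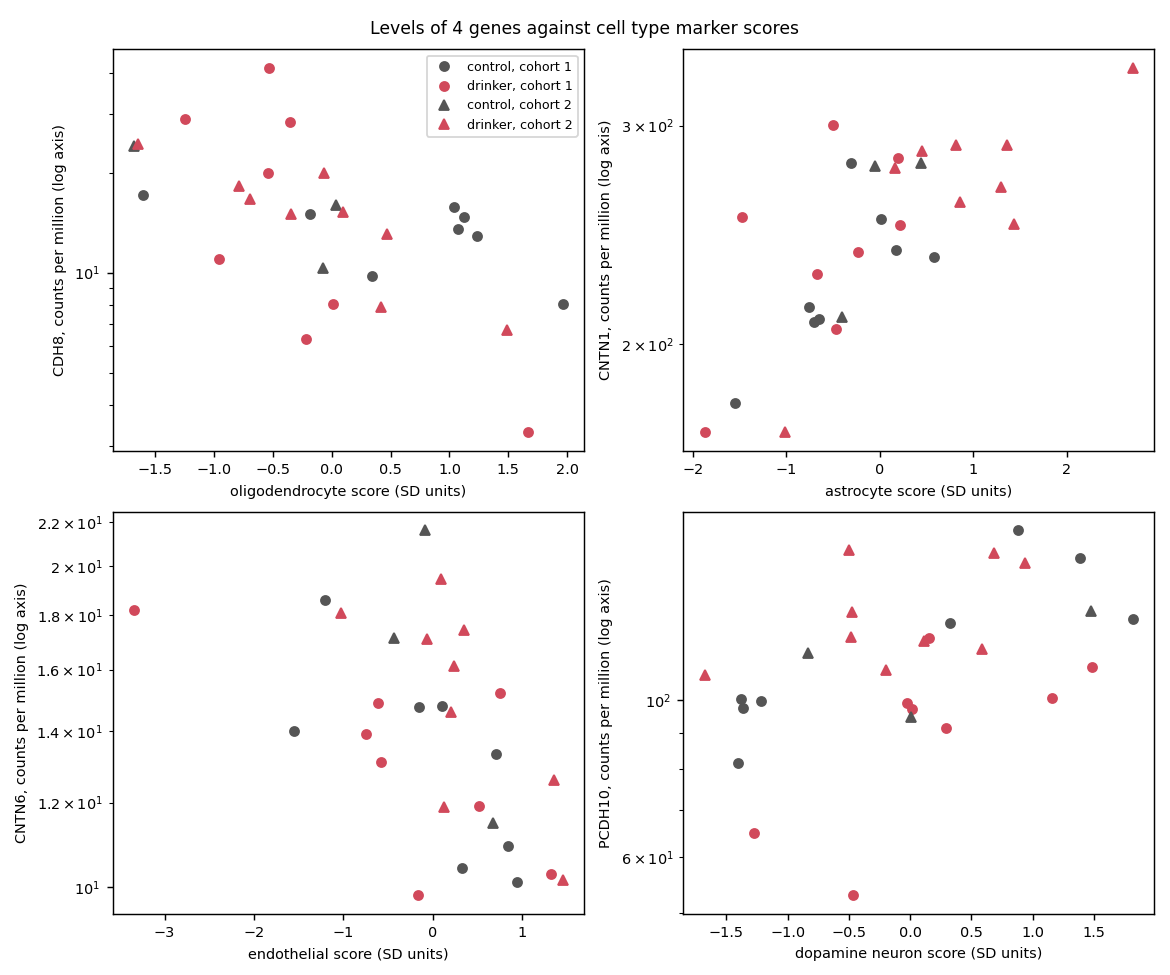
CPM on a log axis of CDH8, CNTN1, CNTN6 and PCDH10 against the oligodendrocyte, astrocyte, endothelial and dopamine neuron scores (x axes, SD units), 1 point per animal. CDH8 lies between 3.30 and 41.5 CPM and is lower at higher oligodendrocyte scores, with drinkers and controls mixed, and CNTN1 is higher at higher astrocyte scores.

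Finally, pairs of known partners, and genes with a cell type score, were compared across animals in 8 relations, of which 6 are reported. None passed after adjustment (lowest adjusted p = 0.27, permutation test, two-sided). CNTN1 and CNTNAP1, which form the paranodal complex, had r = 0.38 and rho = 0.22 over 28 libraries (permutation p = 0.0448 and 0.26), with 0.56 in cohort 1 and 0.087 in cohort 2, and 0.33 without the 2 farthest libraries. CNTNAP1 was at 0 in control 4 of cohort 1, so only 27 libraries had counts of both. The 2 farthest were picked by CNTN1, so control 4 stayed in and its weight on r is not removed. NRXN3 and NLGN3, with counts in every library, had r = -0.29 and rho = -0.25 (permutation p = 0.14 and 0.20). CNTN2 had r = -0.02 with CNTNAP2 and -0.01 with the oligodendrocyte score, with CNTN2 counts in only 5 libraries. CNTN6 had r = 0.23 with the dopamine neuron score (permutation p = 0.23).

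Among the 46 members with counts everywhere, the pairs with the highest correlation of log2 CPM over 28 libraries were CNTN5 with CNTNAP2 (r = 0.73) and CNTN5 with LRRTM2 (r = 0.71). CNTNAP2 with CNTNAP5 had r = 0.70 and CDH4 with PCDH10 r = 0.68. In this order the 4 pairs stood at 0.72, 0.66, 0.54 and 0.72 in cohort 1 and at 0.78, 0.86, 0.91 and 0.34 in cohort 2. The median over all 2211 pairs of members was 0.058, and 0.134 over the 78 pairs of clustered protocadherins, which share a genomic cluster and sequence. These values describe libraries that share preparation and cell content, and they were picked as the highest of many pairs.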

How the data were processed

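RNA-seq of VTA punches from 28 macaques was analysed from 1 table. Per the labels and the study's methods, the authors trimmed reads with Trim Galore 0.6.7, quantified them against Mmul_10 with Salmon 1.9.0 and deposited estimated counts without normalization, with 1 column per animal. The table held 16886 entries with 1 transcript per gene symbol, and 1 entry without a symbol (1.16e-05% of counts) was left out. Group and drinking category came from the labels, cohort from the study's source data by animal. The most alike pair of libraries had identical counts in 0.782% of transcripts with at least 20 counts, so no column was a copy of another, and the labels give each library an animal number of its own.

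Estimated counts were rounded, filtered at 5 counts in 3 libraries, scaled by TMM and tested with the quasi-likelihood test of edgeR 4.0.16 in R 4.3.3. Benjamini-Hochberg adjustment ran over 13769 transcripts, with a threshold of 0.05. DESeq2 adjusted over the transcripts left by its own default filters, so its adjusted p can rest on fewer tests than those of edgeR and limma-voom. Standard errors are the fold change over the root of F, and 95% intervals use 1.96 of them. With few animals this makes the intervals somewhat too narrow, most so in the fits of 1 cohort. Some exclude 0 at an unadjusted edgeR p over 0.05, such as PCDH8 between cohorts (0.0035 to 0.6896, p = 0.0576). DESeq2 1.42.0, limma-voom (limma 3.58.1), other scaling and filters (15576 or 7637 transcripts), covariates, a GC offset and left-out animals were alternatives. Drinkers against controls, in all animals and in each cohort, was tested on simulated data with edgeR, DESeq2 and limma-voom. A slope on a simulated score was tested too. There, most wrong edgeR calls fell on transcripts with 0s. The other fits, with the slopes on the real scores among them, were not simulated. A marker score is the mean standardized log2 CPM (prior count 2) of its list, scaled to SD 1. Permutation tests drew 100000 orders. Named genes were those with an adjusted p under 0.05, otherwise the 6 of lowest p, and a fixed panel, of which 19 genes are given, since 1 member is not reported here beyond the counts it enters. Other members with an unadjusted p under 0.05, the 4 partner genes named, the CDH23 comparison and the correlations without a p were chosen after their values were seen. Members and lists were chosen with earlier results of these data known. RefSeq mRNAs (67963, Mmul_10) gave lengths, sequences and shared words, and 65 of the 68 symbols matched RefSeq coordinates.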

Additional observations from a re-analysis of the deposited data

Results flagged for a closer look

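A panel of 19 genes was looked at in 3 groups of 8 or 9 animals. In 5 of the 57 pairs of gene and group a library stood apart from the rest of its group. The test was Dixon's on log2 CPM (prior count 2), where chance gives about 1 in 20 pairs. The pairs share the same libraries and are not independent. On CPM itself 4 of the 5 miss the critical value, with CNTN2 the exception. Of these transcripts, CNTN2, CNTNAP1 and NLGN1 are at 0 in some libraries. CNTN2 stood at 1.33 CPM in control 2 (19 counts), with the other 7 cohort 1 controls at 0. A group with all other libraries at 0 passes this test by construction, and the chance rate does not hold for it. CNTNAP1 was at 0 in control 4, with 2.78 to 6.88 CPM in the others, and its gap on the log2 scale is set by the prior count. NLGN1 was at 2.58 CPM in drinker 6 against 6.49 to 11.3 in the other cohort 1 drinkers. CNTN1 was at 169.6 CPM in drinker 13 against 249.8 to 334.1 in the other cohort 2 drinkers, and the astrocyte score of drinker 13 was -1.02. CNTNAP2 was at 18.1 CPM in drinker 14 against 29.1 to 45.3, and its oligodendrocyte score was 1.49. The part of cell content in these values was not tested. No member passed the test of a difference in the drinking comparison between cohorts.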

How the results depend on the processing

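No paired analysis was possible because the drinker to which each caloric control was yoked is not given in the sources used here, and replicate numbers only follow accession order. Of 1081 values of named genes under the alternatives, 1054 kept their direction and side of the threshold, 12 lost a call, 9 gained one and 6 reversed. The main fits called only CDH8, on the oligodendrocyte score, and CDH12, on the endothelial score. All 12 lost calls were of these, and most of the 1054 were values not called in either fit. The reversals in cohort 2 alone were CDH4 on the dopamine neuron score (-0.0434), CDH20 on the oligodendrocyte (-0.0101) and endothelial (-0.041) scores, and NRXN3 (0.0231) and PCDH1 (-3.171, with counts in 5 libraries only and not read as a change) on the endothelial score. The other was CDH23 between cohorts without the 4 libraries of highest CDH23 count (-0.603). Those 4 were picked for their counts and are all in cohort 2, so the choice itself lowers the value and tests nothing. That alternative was chosen after seeing the data, like the left-out pair of lowest totals and the animals left out in turn in cohort 1 and on the oligodendrocyte score. The number of members called rose from 0 to 1 with DESeq2 in cohort 1 (NRXN2), between cohorts (NRXN2) and on the astrocyte score (CNTN1), between cohorts among drinkers alone (NRXN2), on the astrocyte score without group and cohort terms (CNTN1), and on the dopamine neuron score with the oligodendrocyte score as a term (PCDH10). On the endothelial score it stayed at 1 with at least 10 counts in every library, but with CNTN6 in place of CDH12, and went from 1 to 2 with DESeq2, to 0 with limma-voom, and to 0 within cohort 1 and within cohort 2. On the oligodendrocyte score it went from 1 to 0 within cohort 1 and within cohort 2, where fewer animals enter, and ranged from 0 to 1 with an animal left out. Other left-out animals gave 0 throughout. Of the relations, CDH5 with the endothelial score reversed where CDH5 has a count (-0.214), and CNTN2 with the oligodendrocyte score on variance stabilized counts (0.002). Neither passed its test. The cause was not tested.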
